A study of Caenorhabditis elegans with 2 samples.

Results

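The genes described here encode 8 proteins of Caenorhabditis elegans germ granules: pgl-1 and pgl-3, glh-1, glh-2, glh-3 and glh-4, deps-1 and simr-1. They were chosen by name, with earlier results of these data known, and they are 8 of the 19973 protein-coding genes annotated on the nuclear chromosomes. Each was scored by the ChIP-seq sites of the nuclear Argonaute HRDE-1 whose summit, the base of strongest signal, lay from 500 bp upstream of the gene's annotated start to 500 bp past its annotated 3′ end. A summit within 500 bp of the start on either side was placed at the start, one within 500 bp of the 3′ end was placed at the 3′ end, and any other lay in the body of the gene.

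The study holds 1 group with 2 biological replicates of strain YL557, and so has no comparison between conditions. The strain carries HRDE-1 (WAGO-9) fused at its C terminus to GFP and FLAG. Whole hermaphrodites were taken as young adults, 48 hours after starved L1 larvae were fed, and sonicated chromatin was precipitated against GFP as the sample description states, while the antibody field names hrde-1 itself. Germ cells and body cells were not separated, so the cells a site comes from cannot be told apart. The authors deposited a candidate list for each replicate (24269 sites for replicate 1 and 30000 for replicate 2), one for the pooled reads (30000 sites), and a list of 1341 sites thresholded by the irreproducible discovery rate (IDR), which measures how well 2 replicates rank the same sites. The authors' name for the pooled list says that it holds peaks and background and was input for IDR. A pooled candidate is therefore not by itself a called binding site. The value of a site is the authors' signal score, on a scale that is not stated. Scores were ranked only within 1 list, rank 1 being the highest. Read depth is unknown, and no counting error can be given for a score.

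Germ granules are condensates of RNA and protein that sit on the outer face of germ cell nuclei, where transcripts leaving the nucleus are surveyed by small RNA pathways. PGL-1 and PGL-3 are RNA-binding scaffold proteins with RGG boxes that form the body of the P granule. The GLH proteins are DEAD-box RNA helicases related to Vasa; GLH-1, GLH-2 and GLH-4 carry phenylalanine-glycine repeats like those of nucleoporins, and GLH-3 lacks them. DEPS-1 is a P granule protein needed for P granule assembly, and SIMR-1 is a Tudor-domain protein of neighbouring foci that links targets of piRNAs to the production of secondary small RNAs. HRDE-1 itself binds such secondary small RNAs and carries silencing in the nucleus from one generation to the next.

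The sequences at the IDR summits of the PGL genes are shown because the strongest site of each of the 2 paralogues ranked highest among the 8 genes, at different ends. Each is written 5′ to 3′ on the strand of the gene from genome build WBcel235 (the assembly called ce11), in lower case with the summit base in capitals, and none of them overlaps an annotated exon. The 3′ end site of pgl-1 is at chrIV:6974240-6974440 on the minus strand. The start site of pgl-3, whose summit lies nearer to the neighbouring gene hil-4, is at chrV:4755454-4755588 on the plus strand. It is shown only from the end of hil-4 onward. The 3′ end site of pgl-3 is at chrV:4758676-4758876 on the plus strand. Its pooled signal, 78.22, was the lowest among the IDR summits of the 8 genes. The GC content of these stretches was 35.3%, 38.5% and 38.8%, in the same order.
pgl-1 3′ end: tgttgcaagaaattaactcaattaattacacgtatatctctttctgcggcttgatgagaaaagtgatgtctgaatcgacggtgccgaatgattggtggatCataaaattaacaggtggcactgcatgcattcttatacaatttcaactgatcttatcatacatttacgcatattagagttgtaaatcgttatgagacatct
pgl-3 start: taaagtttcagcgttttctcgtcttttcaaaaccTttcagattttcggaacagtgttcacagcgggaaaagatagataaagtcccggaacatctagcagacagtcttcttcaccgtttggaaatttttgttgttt
pgl-3 3′ end: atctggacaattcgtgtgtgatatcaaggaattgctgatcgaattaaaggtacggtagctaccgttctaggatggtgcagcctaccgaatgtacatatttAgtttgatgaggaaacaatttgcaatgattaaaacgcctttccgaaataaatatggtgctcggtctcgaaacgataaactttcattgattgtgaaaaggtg

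An IDR summit was found at 7 of the 8 genes, against 8.17% of all protein-coding genes, and glh-3 was the gene without one. By end, 6 genes had an IDR summit at the 3′ end (all genes, 5.36%), 3 genes had one at the start (2.91%), and pgl-3 and glh-2 had both (0.816%). Among all genes with an IDR summit, 65.6% had one at the 3′ end and 35.6% one at the start. None of the 9 IDR summits lay in the body of a gene. Most of all genes with an IDR summit likewise had one at an end, and the share with one in the body was not counted. The excess of 3′ ends over starts appeared in replicate 2 and not in replicate 1. Taking from each replicate as many of its strongest candidates as the IDR list holds, 1341, replicate 1 had one at the 3′ end of 3 genes (pgl-1, glh-1 and deps-1; all genes, 5.62%) and at the start of 3 (2.8%), and replicate 2 at the 3′ end of 6 (5.26%) and at the start of 3 (2.77%). With only the IDR sites at or above the median signal of their list, 3 of the 8 genes (glh-1, pgl-1 and pgl-3) kept an IDR summit, against 4.23% of all genes. A pooled candidate was present at all 8 genes, against 55.6% of all protein-coding genes. The windows of the 8 genes had a median length of 3968 bp against 3027 bp for all genes, and a longer window can hold more summits by its size. Among the 3450 genes whose windows were as long as those of the 8, 10.1% had an IDR summit. The pooled list held 38 candidates in the 8 windows, a median of 1.04 per kb of window for these genes, against 0.24 for all protein-coding genes and 0.299 per kb of the nuclear genome as a whole. Of these 38, 10 lay at starts, 13 at 3′ ends and 15 in bodies. The signal of the 15 body candidates ranged from 14.31 to 46.23 with a median of 28.22, and all lay below the lowest IDR signal of 73.95. The 9 IDR summits had the same ranks by signal in the IDR and pooled lists. The low body signals are thus not evidence separate from the absence of these candidates from the IDR list.

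**Figure D1:**
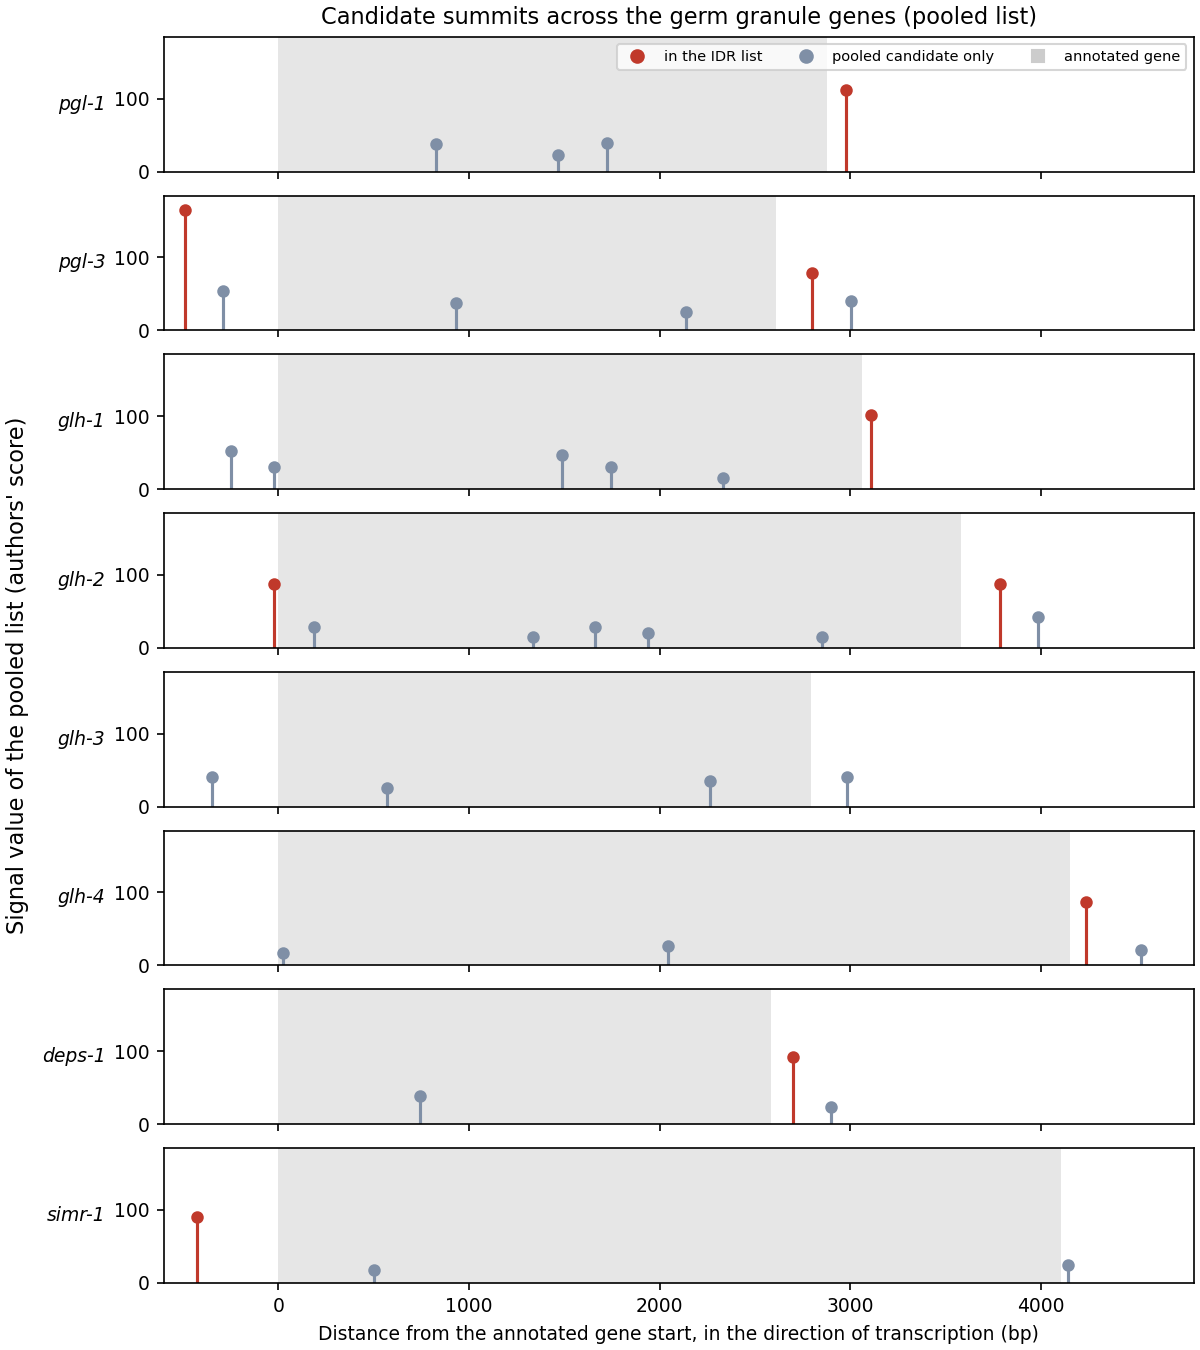
Candidate summits of the pooled list along the 8 genes (grey), by distance in bp from the annotated start in the direction of transcription (horizontal) and by signal (vertical, the authors' score), in red where the site is in the IDR list and in blue-grey where it is not. The 9 IDR summits stand at the starts and 3′ ends, and the 15 pooled candidates in the bodies are all outside the IDR list.

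The strongest sites in the windows of the group were at the PGL scaffold genes, but that of pgl-3 lies nearer to the neighbouring gene hil-4. The gene pgl-1 (WBGene00003992) lies at chrIV:6974441-6977318 on the minus strand, and its IDR summit was at position 6974340, 101 bp past the 3′ end and outside any annotated gene. Its signal there was 112.4 in the pooled list, 39.29 in replicate 1 and 77.84 in replicate 2. It ranked in the top 1.6% of the pooled list, the top 1.67% of replicate 1 and the top 1.99% of replicate 2, so both replicates placed it almost alike. No list held a candidate at the start of pgl-1, although the start of him-3, which encodes a protein of the meiotic chromosome axis, lies 189 bp away in the opposite direction. The other 3 pooled candidates of pgl-1 lay in its body, 1 in an intron and 2 in coding exons, with signals of 39.14, 22.78 and 37.38.

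The paralogue pgl-3 (WBGene00003994), at chrV:4755979-4758587 on the plus strand, had the opposite order of its ends. Its start summit, at position 4755488, had a signal of 164.5 in the pooled list, 66.71 in replicate 1 and 99.56 in replicate 2, the highest value among the 8 genes in each of the 3 lists. It ranked in the top 0.567%, 0.33% and 0.973% of those lists. This summit lay 491 bp upstream of the pgl-3 start but 35 bp past the 3′ end of hil-4, a gene for a linker histone-like protein that is read in the same direction and ends 525 bp before pgl-3 begins. By distance it is therefore nearer to the end of hil-4 than to pgl-3, and which gene it belongs to cannot be told apart from these lists. The 3′ end summit of pgl-3, at position 4758776, lay 189 bp past the gene with no protein-coding neighbour nearby. Its signal was 78.22 in the pooled list, 21.78 in replicate 1 and 58 in replicate 2, and its ranks were in the top 3.99%, 7.54% and 4.17%. The start summit was the higher of the 2 in the pooled list and in both replicates. The proteins translated from the 2 annotated coding sequences are 771 residues (PGL-1) and 693 residues (PGL-3) long and 65.3% identical.

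Among the helicase genes, all on chromosome I, glh-1 and glh-4 had an IDR summit only at the 3′ end, glh-2 had them at both ends and glh-3 had none. At glh-1 (WBGene00001598, chrI:6854478-6857536, plus strand) the IDR summit was at position 6857587, 51 bp past the 3′ end, with no other protein-coding gene nearby. Its signal was 101.9 in the pooled list, 24.9 in replicate 1 and 76.51 in replicate 2. Its rank was in the top 2.18%, 5.34% and 2.08% of these lists, lower in replicate 1 than in replicate 2. The start of glh-1 had a pooled candidate with signal 52.65, 249 bp upstream of the gene and 89 bp past the 3′ end of sacy-1, which encodes another DEAD-box helicase. At that start the strongest signal was 23.01 in replicate 1 and 33.97 in replicate 2, so the 3′ end was the higher in all 3 lists, by little in replicate 1.

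The gene glh-2 (WBGene00001599, chrI:6513928-6517507, plus strand) had sites of nearly equal signal at both ends. Its start summit, at position 6513906 and 22 bp upstream of the gene, had a signal of 87.1 in the pooled list, 27.33 in replicate 1 and 62.87 in replicate 2. It also lies 76 bp upstream of the start of C55B7.11, a gene read the other way. The 3′ end summit, at position 6517710 and 203 bp past the gene, had 87.09, 16.48 and 72.41 in the same lists. The start was higher in replicate 1 and the 3′ end in replicate 2, so the replicates disagreed on which end was higher. The 3′ end summit ranked in the top 16% in replicate 1 and the top 2.36% in replicate 2, the widest gap between replicates among the 9 IDR summits. It lay inside a coding exon of che-1, 181 bp within the 3′ end of that gene, which encodes a transcription factor of gustatory neurons and converges on glh-2 across a gap of 21 bp.

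The gene glh-3 (WBGene00001600, chrI:5792321-5795114, minus strand) had no IDR summit. Its 4 pooled candidates had signals of 40.81 at 189 bp past the 3′ end, 35.22 in a coding exon, 25.39 in an intron and 39.89 at 350 bp upstream of the start, where it falls in the 3′ UTR of mtk-1, a kinase gene. The strongest of them ranked in the top 15.3% of the pooled list. In replicate 1 the 3′ end had a signal of 12.19 and the start had no candidate, while in replicate 2 the 3′ end had 29.62 and the start 38.18. The order of its ends therefore differed between the pooled list, where the 3′ end was higher, and replicate 2, where the start was.

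The gene glh-4 (WBGene00001601, chrI:3727027-3731179, plus strand) had its IDR summit at position 3731261, 82 bp past the 3′ end and 91 bp upstream of T12F5.2, the next gene on the same strand. The signal was 86.45 in the pooled list, 18.56 in replicate 1 and 71.24 in replicate 2. It ranked in the top 3.17%, 11.6% and 2.48% of those lists, again lower in replicate 1. The start of glh-4 had a signal of 17.2 in the pooled list, none in replicate 1 and 12.57 in replicate 2. The 3′ end was the higher in all 3 lists.

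The proteins translated from the annotated coding sequences of the glh genes were 763 residues long for GLH-1, 974 for GLH-2, 720 for GLH-3 and 1156 for GLH-4. GLH-1 and GLH-2 were the closest pair, 85.2% identical, and GLH-3 and GLH-4 the most distant at 36.7%. GLH-3 was 57.6% identical to GLH-1 and 59.1% to GLH-2. Phenylalanine-glycine pairs numbered 21 in GLH-1, 35 in GLH-2, 46 in GLH-4 and 3 in GLH-3, the paralogue without an IDR summit. They numbered 3 in PGL-1, 3 in PGL-3, 2 in DEPS-1 and 2 in SIMR-1, whose genes each had an IDR summit. These counts describe the proteins and were not related to binding by any test.

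The gene deps-1 (WBGene00022034, chrI:506473-509056, plus strand) resembled pgl-1 in having a 3′ end site and no candidate at its start in any list. Its IDR summit, at position 509171 and 115 bp past the 3′ end, had a signal of 91.98 in the pooled list, 29.1 in replicate 1 and 59.59 in replicate 2. Its ranks were close, in the top 2.76%, 3.57% and 3.83%. This summit lies inside a coding exon of Y65B4BL.7, which converges on deps-1 and overlaps its end by 109 bp, and it is 223 bp within the 3′ end of that gene. DEPS-1 is the member whose loss is known to lower glh-1 mRNA.

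The gene simr-1 (WBGene00015504, chrI:5981766-5985871, minus strand) was the only one of the 8 with an IDR summit at its start and none at its 3′ end. The summit, at position 5986299 and 428 bp upstream of the start, had a signal of 90.04 in the pooled list, 29.02 in replicate 1 and 62.46 in replicate 2, and ranks in the top 2.89%, 3.59% and 3.33%. It lies 189 bp upstream of C06A5.3, which is read the other way from a start 616 bp from that of simr-1, and so is nearer to C06A5.3. The 3′ end of simr-1 had 24.71 in the pooled list, no candidate in replicate 1 and 17.57 in replicate 2.

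Across the group, the strongest 3′ end candidate was higher than the strongest start candidate in 5 of the 8 genes, and the start was higher in 3. Among the 9827 protein-coding genes with a pooled candidate at either end, 59.4% were higher at the 3′ end, close to the share in these genes. The counts were 5 and 3 in each replicate list as well, but not for the same genes. The start was higher at pgl-3 and simr-1 in all 3 lists, at glh-2 in the pooled list and replicate 1, and at glh-3 in replicate 2. A gene with no candidate at one end was taken as higher at the other. With a window of 200 bp in place of 500 bp the start was higher in 1 gene, glh-2, since the pgl-3 and simr-1 start summits lie 491 and 428 bp upstream, each nearer to another gene. The glh-2 3′ end summit, 203 bp past the gene, also fell outside that window, which left no glh-2 candidate at that end. Over all 8 genes the pooled candidates at starts had a median signal of 46.27 (17.2 to 164.5) and those at 3′ ends 42.33 (20.94 to 112.4).

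**Figure D2:**
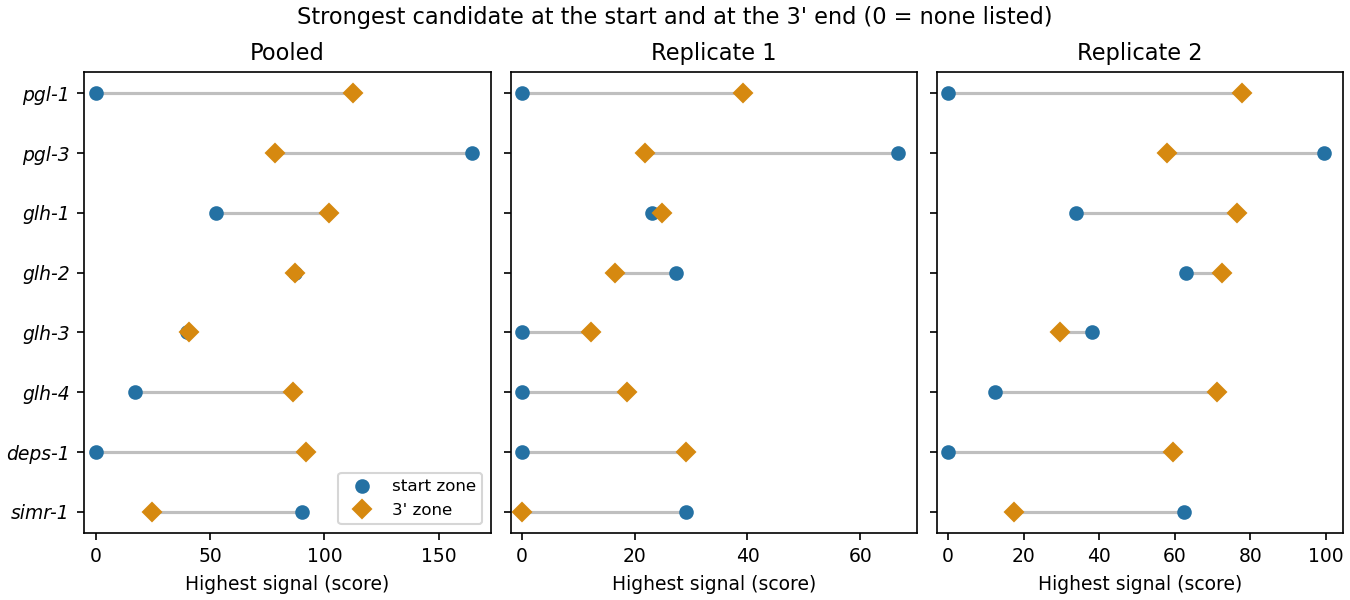
Strongest signal (horizontal, the authors' score on a linear scale with its own range in each panel) at the start (blue circles) and at the 3′ end (orange diamonds) of each gene, for the pooled list and each replicate list. A marker at 0 means that no candidate was listed there; the circle is to the right of the diamond for pgl-3 and simr-1 in all 3 panels, and the 2 markers of glh-2 and of glh-3 nearly coincide in the pooled panel.

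The 3′ end summits fell in a narrow stretch just past the genes. The 6 IDR summits lay 51 to 203 bp past the annotated 3′ end, with a median of 108 bp. Over the 1170 pairs of a protein-coding gene and an IDR summit at its 3′ end, the median was 104.5 bp past, with quartiles at -20 (inside the gene) and 201.8 bp, and 55.2% of pairs lay between 0 and 250 bp past the end. The positions in these genes are therefore near the middle of those of all genes with such a summit.

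**Figure D3:**
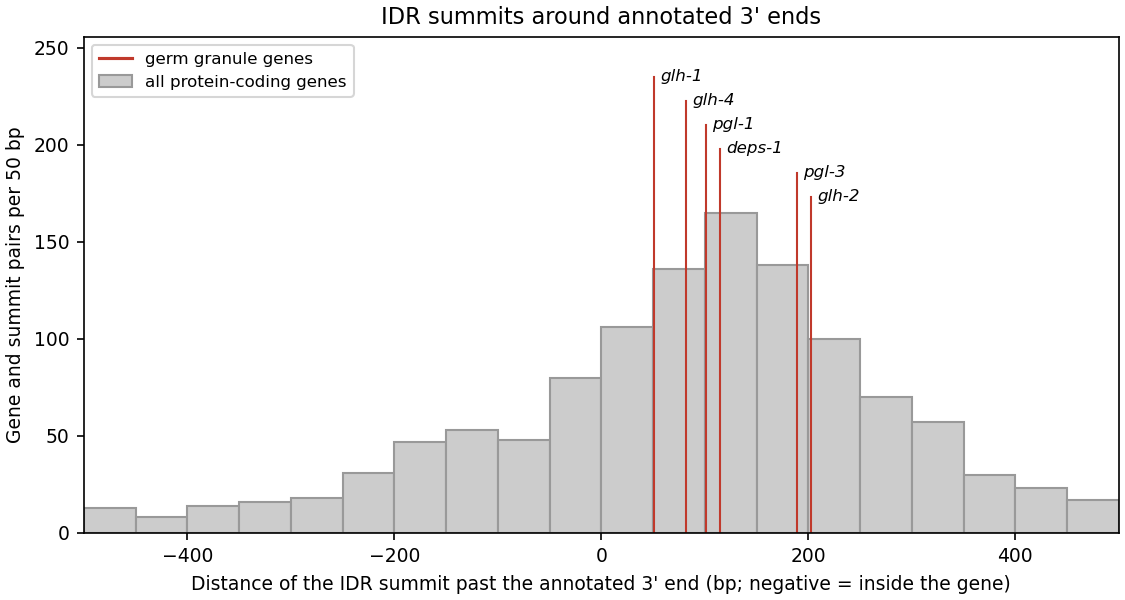
Distance of IDR summits past the annotated 3′ end in bp (horizontal, negative inside the gene) against the number of gene and summit pairs in each 50 bp (vertical). Grey bars are the 1170 pairs of all protein-coding genes, and the 6 red lines, from glh-1 at 51 bp to glh-2 at 203 bp, fall between 0 and 250 bp past the end.

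Both replicate lists held a summit within 100 bp of every one of the 9 IDR summits, against 88% of all IDR summits on the nuclear chromosomes. Of the other 29 pooled candidates in the 8 windows, 6 had one in both replicates, which makes 15 of 38 in all. Over the whole pooled list this share was 22.7%. Each of the 9 IDR summits had the same rank by signal in the IDR list as in the pooled list, down to rank 1197. Down to that rank the IDR list thus holds the strongest pooled candidates. Presence in it does not by itself show that both replicates hold the site. The distance from a pooled IDR summit to the nearest summit ranged from 5 to 73 bp in replicate 1 with a median of 19 bp, and from 0 to 15 bp in replicate 2 with a median of 2 bp. The ranks of the 9 summits ran from the top 0.33% to the top 16% in replicate 1, with a median of 4.15%, and from 0.973% to 4.17% in replicate 2, with a median of 2.48%. For all nuclear IDR summits the medians were 3.19% in replicate 1 (quartiles 1.47% and 7%) and 2.27% in replicate 2 (quartiles 1.17% and 3.63%). Replicate 1 thus spread these sites over a wider range of ranks than replicate 2 did.

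**Figure D4:**
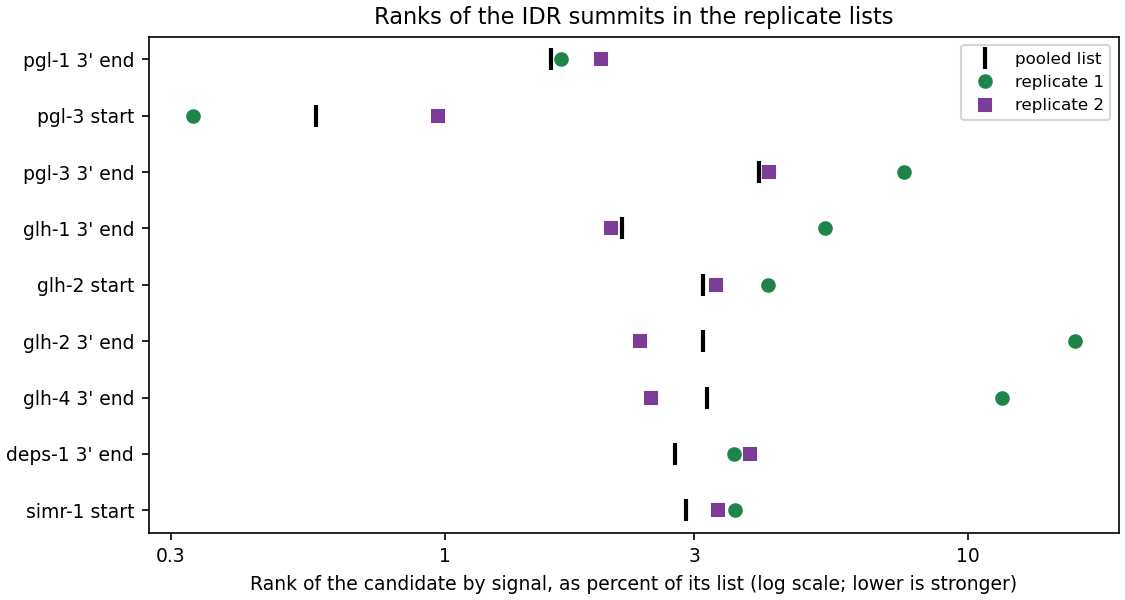
Rank by signal of each of the 9 IDR summits (1 line each), as percent of its list on a log scale where lower is stronger, in the pooled list (black bars), replicate 1 (green circles) and replicate 2 (purple squares). The pgl-3 start summit is the strongest in both replicates (0.33% and 0.973%), and the markers are farthest apart at the glh-2 3′ end summit (16% in replicate 1 and 2.36% in replicate 2).

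Among the 1341 strongest candidates of each list, replicate 1 had one in the window of 6 of the 8 genes and replicate 2 of 7. Over all protein-coding genes these shares were 8.31% and 8.08%. Replicate 1 lacked one at glh-4 and glh-3, and replicate 2 lacked one at glh-3. The strongest candidate of each gene was also placed as a percentile among all genes with a candidate in the same list, and the mean of the 2 replicates then gives an order. The percentile was 97.9 ± 1.74 (SD, n = 2) for pgl-3 and 94.3 ± 1.25 for pgl-1. It was 90.5 ± 2.45 for glh-2, 89.8 ± 0.676 for simr-1, 89.5 ± 5.15 for glh-1, 89 ± 1.86 for deps-1 and 82.3 ± 13.5 for glh-4, and neighbours in this order overlapped in the values of their 2 replicates. For glh-3 it was 58.2 ± 18.8, from 44.9 in replicate 1 and 71.5 in replicate 2. Both values of pgl-3 were above both of pgl-1, both of pgl-1 were above both of glh-2, and both of glh-4 (72.8 and 91.9) were above both of glh-3. The place of pgl-3 rests on its start summit, which is nearer to hil-4. In the pooled list the percentile was 97.9 for pgl-3 and 94.4 for pgl-1. With a window of 200 bp, which leaves that summit out, pgl-3 had 88.9 and pgl-1 had 95.4, the reverse order. With 2 replicates no test was made.

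Several of the sites are shared with other genes. Of the 9 IDR summits, 6 lay within 500 bp of another protein-coding gene, and only the 3′ end summits of pgl-1, pgl-3 and glh-1 had no such neighbour. The start summits of pgl-3 and simr-1 and the 3′ end summit of glh-2 were nearer to an end of another gene than to the end of the germ granule gene, and the glh-2 and deps-1 3′ end summits lay inside another gene. Over all 38 pooled candidates, 15 lay within 500 bp of 9 other protein-coding genes or inside them. Among these is cpb-3, an RNA-binding protein gene whose start lies 380 bp from the glh-3 3′ end candidate. Which gene's transcript or chromatin a shared site reflects cannot be told apart from positions.

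Near-identical sequence could affect the scores of glh-4 and simr-1. Of the positions in each window, 100% had a 36-base word found once in the genome for glh-3 and deps-1, 99.41% for pgl-3, 95.84% for pgl-1, 89.7% for glh-2, 88.15% for glh-1, 71.41% for simr-1 and 39.59% for glh-4. With words of 50 bases the value for glh-4 was 49.24%. Much of the glh-4 window has a near-identical copy on chromosome X, in 2 stretches of 1768 bp (98.1% identical) and 2845 bp (97.9% identical) between positions 172802 and 177374. The annotation marks it as a pseudogene, and no candidate of any of the 4 lists lay within 500 bp of it. The end of simr-1 likewise has a copy of 1385 bp (98.5% identical) on its own chromosome at positions 5978803 to 5980187, and no candidate lay inside it. How reads that map to more than 1 place were treated is not given in the sources used here. The interval of the glh-4 IDR summit was 70.31% unique with 36-base words, and those of the other 8 IDR summits were 100% unique. The interval of the weaker start candidate of glh-1, 25 bp upstream of that gene with a signal of 30.76, was 39.9% unique. The part played by repeated sequence in the low start signals of glh-4 and the low 3′ end signal of simr-1 was not tested.

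Base composition varied among these sites. Within 100 bp of the 9 IDR summits the GC content ranged from 26.9%, at glh-4, to 41.8%, with a median of 37.3%. For all nuclear IDR summits the median was 39.3% (quartiles 34.8% and 44.8%), and for all pooled candidates 36.8% (31.3% and 43.3%). The summits of glh-4 and simr-1 (30.8%) were under the lower quartile of both.

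From a list of 40 further names of P granules, Z granules, Mutator foci and SIMR foci, 38 matched a gene, and 14 of them (36.8%) had an IDR summit, against 8.17% of all protein-coding genes. Of the 14, 12 had one at the 3′ end and 2, ife-1 and pid-5, at the start, beside the 65.6% and 35.6% of all genes with an IDR summit. Among the 12, prg-1 and csr-1, both named here after their values were seen, also had an IDR summit in the body, and at prg-1 the body summit was the stronger, with a signal of 84.72 against 74.02 at the 3′ end. A pooled candidate was present at 37 of the 38. The median percentile of the strongest pooled candidate was 81.7 for these genes and 90.6 for the 8. The strongest sites were at cgh-1, an RNA helicase of translational repression, with a signal of 287 at 248 bp past its 3′ end, and at the Argonaute gene wago-4 with 192.8 at 74 bp past. The ribonuclease gene nyn-2 had 183.7 at 344 bp past, mut-16, which encodes the scaffold of Mutator foci, had 181.1 at 12 bp past, and the Argonaute gene csr-1 had 173 at 51 bp past. The genes mip-2 and rde-12 shared 1 summit with a signal of 160, 24 bp inside the 3′ end of mip-2 and 85 bp past that of rde-12. The difference between the 8 genes and this list was not tested.

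The genes whose profile was most like each of the 7 with an IDR summit were found by the distance between 4 values: the log10 of the best rank at the start and at the 3′ end, in each replicate list. An end with no candidate was given the rank after the last of its list. The nearest were clec-127 and lgc-45 for pgl-1 (0.019 each, with the same ranks in both replicate lists), tpxl-1 (0.351) and wwp-1 (0.458) for pgl-3, and fbxa-211 (0.177) and atp-5 (0.235) for glh-1. For glh-2 they were M01G5.1 (0.204) and otub-3 (0.249), for glh-4 trf-2 (0.0636) and ral-1 (0.0646), for deps-1 panl-2 (0.00961) and snb-2 (0.0247), and for simr-1 T07F10.3 (0.139) and rpap-3 (0.162). None of the 14 is another of the 8 genes. The neighbours of pgl-1, glh-4 and deps-1 had no candidate at the start in either replicate. These distances thus rest on the 3′ end ranks and on an absence at the start, though glh-4 itself had a start candidate in replicate 2. The neighbours of simr-1, like simr-1 itself, had no candidate at the 3′ end in replicate 1.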

How the data were processed

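ChIP-seq of HRDE-1 was measured in 2 biological replicates of 1 strain, per the labels. The authors deposited peak lists on genome build ce11 for each replicate, for pooled reads and thresholded by IDR. By its name the pooled list holds background as well as peaks. Column 7 of the deposited lists is the authors' signal score for each site, and their summit offset gives its position. Aligner, caller, IDR threshold and software versions: not given in the sources used here, and neither is the number of reads, so depth is unknown. A control alignment entered the authors' calling and was not analysed here. Lists on ce10 were not used.

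Positions were computed here as 1-based summits and set against genome WBcel235 with Ensembl release 115 gene models, whose chromosome ends no site passed. Only protein-coding genes of the 6 nuclear chromosomes were counted. Protein identity came from global alignment (BLOSUM 62, gap penalties 11 and 1) of translated coding sequences. Python 3.11.15, numpy 2.4.6, pandas 2.3.3 and Biopython 1.88 were used, with BLAST 2.17.0 for copies of at least 1000 bp and 95% identity, a search added after the uniqueness values were seen, and the scoring was tested on simulated data with 200 planted summits. No test between groups or set test was made, since there is 1 group. The 8 genes and the list of other germ granule genes were chosen with earlier results of these data known. All 8 genes were named, with protein-coding neighbours at their summits, up to 6 further germ granule genes by signal (mip-2 and rde-12 tied at the last place) and the 2 genes most alike in ranks. Alternatives changed the window to 200 or 1000 bp, the gene models to RefSeq, the matching distance, the match to interval overlap, the IDR list to its sites at or above the median signal, the zones to the sequence outside the gene, and left out each replicate.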

Additional observations from a re-analysis of the deposited data

How the results depend on the processing

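The count of 7 genes with an IDR summit (8.17% of all genes) was also 7 with a window of 1000 bp (9.21%), with RefSeq gene models (8.12%), with interval overlap in place of summits (8.67%), and with the strongest 1341 candidates of replicate 2 alone (8.08%). With only the IDR sites at or above the median signal of that list it was 3 (glh-1, pgl-1 and pgl-3; all genes, 4.23%). With a window of 200 bp it was 6, without simr-1 (6.28%), and with the strongest 1341 candidates of replicate 1 alone it was 6, without glh-4 (8.31%). All 8 genes had a pooled candidate under every alternative tried. With a window of 200 bp the start was higher than the 3′ end in 1 gene, glh-2, in place of 3, because the pgl-3 and simr-1 start summits lie farther than that from the gene. The glh-2 3′ end summit, 203 bp past that gene, fell outside as well. Pooled candidates with a summit in both replicates were 11 at 50 bp and 20 at 200 bp, against 15 at 100 bp. The median percentile of 90.6 ranged from 89.5 to 92.1. Among 48 single-gene values, 7 moved by more than the spread between replicates. The largest changes were to 32.6 for simr-1 with a window of 200 bp and to 72.8 for glh-4 from replicate 1 alone. For pgl-3 the value fell from 97.9 to 88.9 with a window of 200 bp, below the 95.4 of pgl-1. No paired analysis was possible because there is 1 group. Depth could not limit or support any value, as it is unknown.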
